A study of Mus musculus with 8 samples.

Results

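Transcripts of 8 genes of steroid hormone metabolism were followed in mouse liver, out of 24197 genes listed in the authors' deposited table. They were taken by symbol: the 3β-hydroxysteroid dehydrogenase genes Hsd3b2, Hsd3b3 and Hsd3b5, the 17α-hydroxylase gene Cyp17a1, the 5α-reductase gene Srd5a1, the 11β-hydroxysteroid dehydrogenase gene Hsd11b1, the 17β-hydroxysteroid dehydrogenase gene Hsd17b2 and the aldo-keto reductase gene Akr1c6. All 8 were found and all 8 had reads in every library. The study asked how loss of the transcription factors STAT5a and STAT5b from hepatocytes alters gene expression in male and female liver. Knockout mice carried a floxed Stat5a-Stat5b locus from C57BL/6 x 129J mice together with a Cre transgene, bred from FVB/N mice, that the albumin promoter drives in hepatocytes, so other liver cells kept both genes. Controls carried the floxed locus, and no samples with an unaltered locus were analysed here. Animals were 8 to 12 weeks old and untreated as far as the labels say. Control males, knockout males, control females and knockout females were each represented by 2 libraries, each made from a pool of livers of unstated size, so that p-values measure the spread between pools only.

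The liver both activates and clears steroids. Hydroxysteroid dehydrogenases move a steroid between its hydroxyl and keto forms, 5α-reductases saturate the ring of testosterone, progesterone and corticosteroids, and 11β-hydroxysteroid dehydrogenase type 1 regenerates active corticosterone inside the cell. STAT5b is activated in hepatocytes by pulses of growth hormone, which differ between male and female rodents, and many liver enzymes of steroid metabolism differ between the sexes. Hsd3b5 is a classical male-predominant transcript of mouse liver.

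Levels are in FPKM, reads scaled by gene length and library total. Separations and overlaps of libraries given below are of FPKM, without the normalization used for the authors' ratios and voom. The table lists the mean of each group, and the value of each library was recovered from it. Within a group the libraries could be told apart only by their totals and are called deeper and shallower. Totals ran from 6192515 reads in the shallower control male library to 34651386 in the deeper control female library, with 2290160 to 11370820 reads in genes. The targeted gene Stat5b stood at 2.68 ± 1.04 FPKM (control males), 0.859 ± 0.247 (knockout males), 3.39 ± 0.698 (control females) and 1.44 ± 0.468 (knockout females), each as the mean ± SD with n = 2. The library codes in the titles are not explained. In females each genotype has a code of its own, so code and genotype cannot be told apart. Of the knockout male libraries, 1 shares the code of both control male libraries. Males and females of the same genotype share no code, so code and sex cannot be told apart among controls or among knockouts.

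In knockout males 5 of the 8 transcripts changed against control males, with an adjusted p under 0.05 in the authors' edgeR test, where 2.18% of all listed genes were called. Shares of all genes in that test include 6193 genes at 0 in all 4 groups, which could not be called, whereas the 8 all had reads. Hsd3b5, Hsd3b2, Hsd17b2 and Srd5a1 fell (0.793% of all genes were called lower) and Cyp17a1 rose (1.39% called higher). In knockout females 2 of 8, Hsd3b2 and Srd5a1, were called, both lower, where 1.55% of all genes were called and 0.508% called lower. Between control males and control females 4 of 8 differed, against 1.47% of all genes: Hsd3b5, Hsd3b2 and Srd5a1 were higher in males (0.686% called higher) and Cyp17a1 was lower in males (0.785% called lower). Between knockout males and knockout females 2 of 8 differed, against 1.01% of all genes: Hsd3b5 was still higher in males (0.533% called higher) and Hsd17b2 was lower in males (0.479% called lower). The median log2 ratio of the 8 was -0.88 in knockout males, beside 0.02 for all genes, and -0.40 in knockout females, beside 0.00. Each of the 4 groups enters both a genotype and a sex comparison, so these comparisons are not independent. In knockout males the summed Kupffer cell markers were also higher, at 44.9 to 47.4 FPKM beside 29.3 to 29.5 in control males, and the summed hepatocyte markers lower, at 15003 to 16154 beside 16916 to 21332; their part in the results was not tested. Whole liver was sequenced, so fewer cells of a type and less RNA per cell cannot be told apart.

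With limma voom, which estimates the spread from the recovered libraries, 4 of the 5 calls in knockout males held (1.51% of 12982 genes called), all but Cyp17a1. Percentages here are shares of genes called at an adjusted p under 0.05. Counts at an unadjusted p, here and below, stand without a share of all genes and cannot be read against these percentages. None of the 8 was called in knockout females (0.354% called; 4 had an unadjusted p under 0.05) or between the knockout sexes (0.385% called; 5 unadjusted), and Hsd3b5 alone was called between control males and females (0.763% called). Limma on log2(FPKM + 1) of the same libraries called none of the 8 in knockout males (0.305% of 18004 genes called; 6 of the 8 unadjusted), in knockout females (0.0333%; 1 unadjusted) or between knockouts (0.0889%; 4 unadjusted), and Hsd3b5 alone between control sexes (0.355%). 

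**Figure D1:**
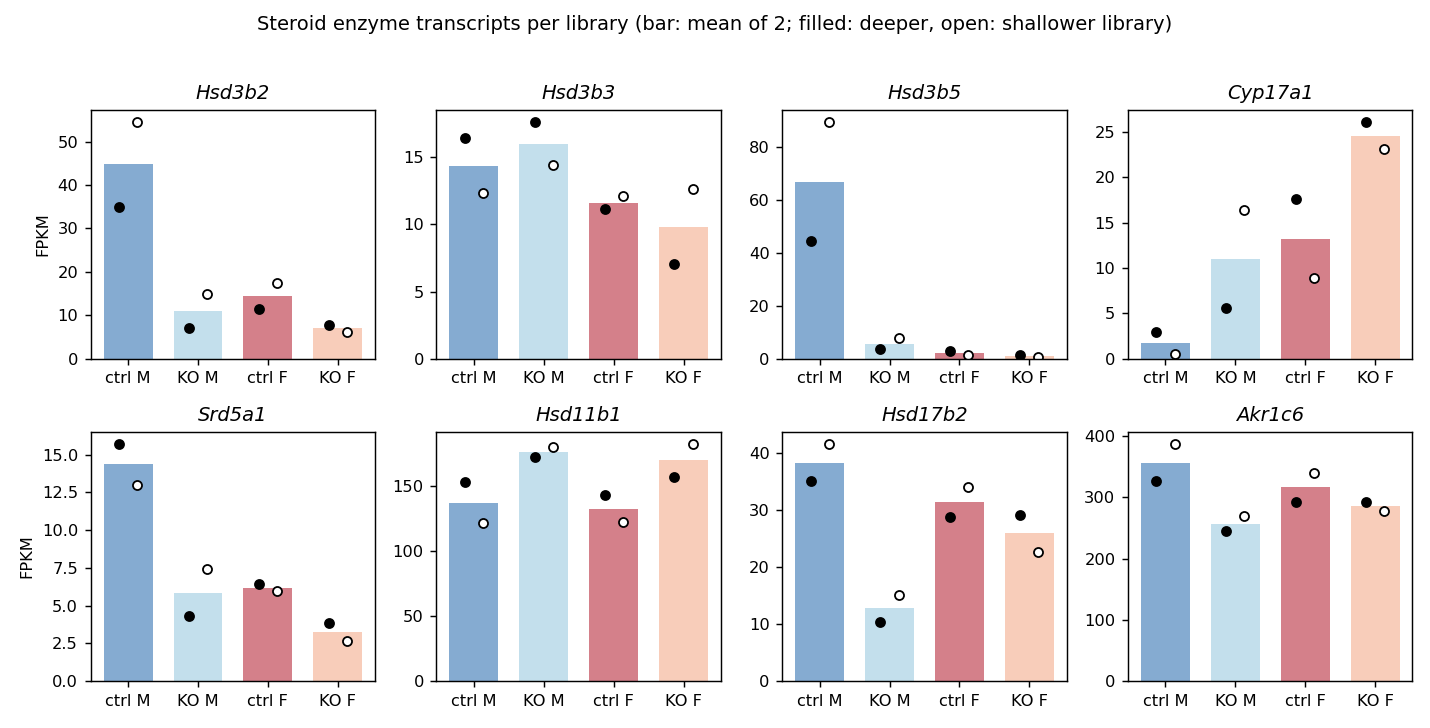
FPKM of each of the 8 genes (vertical axes, linear and starting at 0, with a scale of its own for each gene) in control (ctrl) and knockout (KO) males (M) and females (F). Bars are means of 2 libraries, filled points the deeper and open points the shallower library. Control males stand above all other groups for Hsd3b2, Hsd3b5 and Srd5a1 and below them for Cyp17a1, and knockout males stand lowest for Hsd17b2.

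Hsd3b2, Hsd3b3 and Hsd3b5 lie in 1 cluster on chromosome 3. On mm9, the build of the table, Hsd3b5 (NM_008295) spans 98422558 to 98449457, Hsd3b2 (NM_153193) spans 98515029 to 98528466 and Hsd3b3 spans 98545398 to 98567051. The first 60 coding bases from GENCODE M21 transcripts, counted from the start codon, are shown because reads must be divided among such copies. Capitals mark the 7 positions that are not alike in all 3 genes.
Hsd3b2: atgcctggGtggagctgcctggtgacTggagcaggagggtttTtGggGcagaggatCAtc
Hsd3b3: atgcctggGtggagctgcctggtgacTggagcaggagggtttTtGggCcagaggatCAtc
Hsd3b5: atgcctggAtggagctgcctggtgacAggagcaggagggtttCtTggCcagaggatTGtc
Over the whole coding sequence of 1119 bases, Hsd3b2 and Hsd3b3 were 95.1% identical, while Hsd3b5 was 80.3% identical to Hsd3b2 and 79.5% to Hsd3b3. Its nearest copy was Hsd3b4, at 95.2%. Of all 50-base stretches, 35.6% of those of Hsd3b2, 33.8% of those of Hsd3b3 and 26.3% of those of Hsd3b5 occurred unaltered in another gene of the cluster. How the authors counted reads that fit several genes is not stated in the labels, so the split between Hsd3b2 and Hsd3b3 is uncertain. Hsd3b4 was listed at 0 in all 4 groups.

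Hsd3b5, which in mouse encodes a 3-ketosteroid reductase of male liver, had the widest range of the 8, with a highest group mean 66.8 times the lowest. In control males it stood at 44.5 FPKM in the deeper and 89.5 in the shallower library, and in knockout males at 3.67 and 7.84. Control females had 3.07 and 1.45 FPKM and knockout females 1.45 and 0.555, again deeper library first. Both control male libraries were far above all 6 others, both knockout male libraries were still above both control female libraries by a gap of 0.602 FPKM, and the female groups overlapped. The means were 67.0 ± 31.8 FPKM for control males, 5.76 ± 2.95 for knockout males, 2.26 ± 1.15 for control females and 1.0 ± 0.635 for knockout females (SD, n = 2). An 11.3-fold fall of knockout males, adjusted p 1.5e-18, stands in the authors' deposited table. The voom log2 change was -3.56 ± 0.39 (SE) with an adjusted p of 0.0055. In females the same table gives a 2.47-fold lower value in knockouts with an adjusted p of 0.11, which did not pass. The female voom log2 change of -1.45 ± 0.70 (SE) became -0.78 without the deeper control, -2.20 without the deeper knockout and -0.85 without the shallower knockout library.

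The sex difference of Hsd3b5 was 25.6-fold among controls, adjusted p 2.5e-33, and 5.66-fold among knockouts, adjusted p 2.3e-07, both in the authors' deposited table. By voom the log2 difference among controls was 4.61 ± 0.49 (SE), adjusted p 0.0040. It was 5.29 without the deeper control female library, with an adjusted p of 0.14. Among knockouts the voom log2 difference was 2.50 ± 0.63 (SE), adjusted p 0.22. It became 3.26 without the deeper and 1.91 without the shallower knockout female library, with 71 and 21 reads of the gene in those libraries.

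Hsd3b2, a 3β-hydroxysteroid dehydrogenase and isomerase that converts hydroxylated precursors to their keto forms, was highest in control males and fell in knockouts of both sexes. Control males had 35.0 and 54.5 FPKM, knockout males 7.01 and 14.8, control females 11.5 and 17.4, and knockout females 7.84 and 6.13, deeper library first. Knockout males overlapped both female groups, and control males overlapped none. The authors' deposited table puts male knockouts 4.03-fold lower, adjusted p 5.1e-08, and female knockouts 2.27-fold lower, adjusted p 1.7e-04. The voom log2 change was -2.09 ± 0.33 in males, adjusted p 0.019, and -1.14 ± 0.34 in females, adjusted p 0.28 (SE). With a male library left out, the male change ran from -1.60 to -2.57. How calls fared without single libraries is given in the closing section. Control males exceeded control females 2.75-fold, adjusted p 1.2e-05, per the authors' deposited table. Among knockouts the ratio was 1.57 with an adjusted p of 0.81, and the libraries overlapped.

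Hsd3b3, an enzyme of the same dehydrogenase and isomerase class, did not pass the test in any of the 4 comparisons. It stood at 16.4 and 12.3 FPKM for control males, 17.6 and 14.4 in knockout males, 11.1 and 12.1 in female controls and 7.04 and 12.6 in female knockouts, deeper library first. The genotypes overlapped in both sexes. In FPKM both male groups lay above the female group of the same genotype, by a gap of only 0.168 FPKM among controls. The authors' normalized male to female ratio among controls was 1.15. Among knockouts the authors' deposited table gives a male to female ratio of 1.67, adjusted p 0.34.

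Summed over the 6 genes Hsd3b1 to Hsd3b6, the cluster gave 126 ± 42.8 FPKM for control males, 32.7 ± 6.17 in knockout males, 29.7 ± 3.80 in female controls and 18.7 ± 1.28 in female knockouts (SD, n = 2). Hsd3b5 made up 51.8% ± 7.65 of this sum in control males, 17.1% ± 5.80 in knockout males, 7.91% ± 4.87 in female controls and 5.49% ± 3.76 in female knockouts (SD, n = 2). Hsd3b3 made up 17.1% and 7.86% in the control male libraries and 62.2% and 38.8% in the knockout male libraries, deeper library first, without an increase in its own level that passed the test. Hsd3b1, the isoform of steroid-producing tissues, had 0 reads in all 4 male libraries, 88 and 39 in female controls and 84 and 14 in female knockouts. The authors' deposited table calls it lower in males with an adjusted p of 9.1e-18 among controls and 3.7e-08 among knockouts, and voom gave 0.15 and 0.21.

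**Figure D2:**
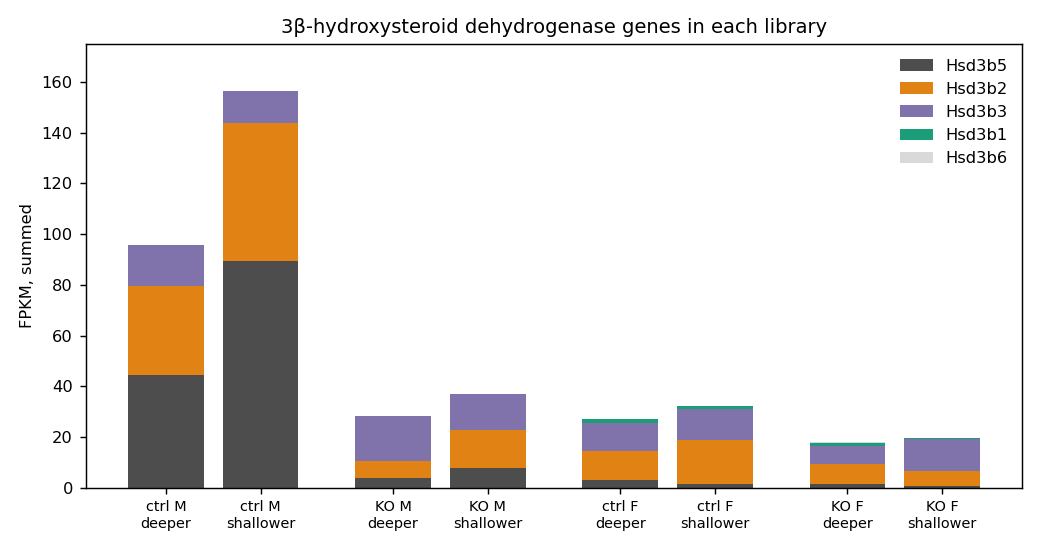
Summed FPKM of the Hsd3b cluster (vertical axis) in each of the 8 libraries, split by gene. Control (ctrl) males (M) reach 95.9 and 156 FPKM, with Hsd3b5 as the largest piece, and the other libraries, knockout (KO) or female (F), reach 17.8 to 37.0 FPKM, mostly from Hsd3b2 and Hsd3b3.

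RefSeq promoter windows, 250 bases before to 50 after a gene start on GRCm38.p6, were in the table used for 6 of the 8 genes, with 7 windows; Cyp17a1 and Hsd17b2 were the others. The window of Hsd3b5, with the widest range of the 8, and 1 window of Hsd3b3, with no call, aligned over 238 positions with 75.6% identical. Another window of Hsd3b3, from a different start, aligned with that of Hsd3b5 over 238 positions with 76.5% identical and is not shown. The stretches below are shown because these similar windows stand before genes with unlike values. They are on the minus strand, chr3:98645583-98645784 for Hsd3b5 (positions -250 to -49 from its start) and chr3:98763129-98763327 for Hsd3b3 (positions -199 to -1). Capitals mark bases that are mismatched or unpaired, and 151 of 202 aligned positions were identical.
Hsd3b5: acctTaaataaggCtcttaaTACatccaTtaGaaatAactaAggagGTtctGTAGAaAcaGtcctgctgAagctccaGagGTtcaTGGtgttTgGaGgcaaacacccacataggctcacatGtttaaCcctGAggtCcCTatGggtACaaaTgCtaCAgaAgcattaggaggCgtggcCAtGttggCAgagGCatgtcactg
Hsd3b3: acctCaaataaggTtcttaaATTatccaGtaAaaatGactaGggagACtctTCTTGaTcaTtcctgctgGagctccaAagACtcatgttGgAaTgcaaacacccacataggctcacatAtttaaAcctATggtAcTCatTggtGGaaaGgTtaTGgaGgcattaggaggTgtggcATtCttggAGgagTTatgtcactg
The window of Hsd3b2 aligned with that of Hsd3b5 over only 19 positions and with that of Hsd3b3 over 33. The STAT5 motif TTCNNNGAA, searched on both strands, was in 0 of the 7 windows and in 8.30% of all 32851 windows. The motif ATTGAT, bound by ONECUT factors and CUX2, was in 0 of 7 and in 7.54% of all windows. The TATA motif TATAAA was in 1 of 7, that of Akr1c6, and in 13.6%. These windows hold only the bases next to the start, and enhancers were not searched.

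Cyp17a1 (NM_007809; chromosome 19, 46741654 to 46747490), which makes androgen precursors from progestins by hydroxylation and side-chain cleavage, ran the other way. It stood at 3.0 and 0.526 FPKM for control males, from 161 and 6 reads, and at 5.64 and 16.4 in knockout males. Control females had 17.6 and 8.85 FPKM and knockout females 26.1 and 23.1, deeper library first. Control males were below all other libraries, knockout females above all others, and knockout males overlapped control females. The means were 1.76 ± 1.75, 11 ± 7.62, 13.2 ± 6.21 and 24.6 ± 2.10 FPKM for control males, knockout males, control females and knockout females (SD, n = 2). Knockout males were 5.49-fold higher than control males, adjusted p 4.6e-04, in the authors' deposited table, which also gives a 7.17-fold lower level in control males than in control females, adjusted p 6.1e-07.

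Single libraries set the size of these Cyp17a1 differences. The voom log2 change in knockout males was 2.15 ± 0.81 (SE), adjusted p 0.27. It was 4.18 without the deeper control male library, 2.88 without the deeper and 1.44 without the shallower knockout male library. The voom log2 difference between control males and females was -2.69 ± 0.81 (SE), adjusted p 0.24, and -4.70 without the deeper control male library. In females the authors' ratio of knockout to control was 1.69 with an adjusted p of 0.16, and among knockouts Cyp17a1 stood 2.23-fold lower in males with an adjusted p of 0.088, so neither passed. Among knockouts the voom log2 difference was -1.33, and -0.62 without the deeper and -2.04 without the shallower knockout male library. Of markers of steroid-producing tissue, Cyp11b2, Nr5a1 and Mc2r had 0 reads in all 8 libraries, Cyp11b1 0 to 1 and Cyp11a1 0 to 2. The other 2 had reads in every library, 8 to 30 for Star and 3 to 132 for Cyp21a1, which was called in 2 comparisons, and the 7 markers summed to 0.253 to 2.58 FPKM. Their part in the Cyp17a1 values was not tested.

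Srd5a1 (NM_175283; chromosome 13, 69712326 to 69750341), which reduces testosterone, progesterone and corticosteroids at the 5α position, was highest in control males and fell in knockouts of both sexes. Its levels were 15.7 and 13 FPKM for control males, 4.32 and 7.39 in knockout males, 6.44 and 5.94 in female controls and 3.86 and 2.65 in female knockouts, deeper library first. Knockout males overlapped control females, and control and knockout libraries were separate in each sex. The authors' deposited table puts male knockouts 2.48-fold lower, adjusted p 3.2e-04, and female knockouts 2.08-fold lower, adjusted p 1.5e-04. By voom the log2 change was -1.36 ± 0.24 in males, adjusted p 0.034, and -1.08 ± 0.26 in females, adjusted p 0.18 (SE). With a male library left out, the male change ran from -1.03 to -1.69, and how calls fared is given in the closing section. Control males exceeded control females 2.13-fold, adjusted p 4.4e-04 in the authors' deposited table. Among knockouts the ratio was 1.81 with an adjusted p of 0.10.

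Hsd17b2 (NM_008290; chromosome 8, 120225845 to 120282929), which oxidises estradiol to estrone and testosterone to androstenedione, fell in knockout males. It stood at 35.1 and 41.6 FPKM for control males, 10.4 and 15.1 in knockout males, 28.8 and 34.0 in female controls and 29.2 and 22.6 in female knockouts, deeper library first. Both knockout male libraries were below all 6 others, and the female genotypes overlapped. The authors' deposited table gives a 2.97-fold fall in males with an adjusted p of 1.2e-08. The voom log2 change was -1.60 ± 0.18 (SE), adjusted p 0.0062, and ran from -1.38 to -1.81 with a male library left out. In females the authors' table gives a 1.33-fold lower value with an adjusted p of 0.80. Controls differed 1.10-fold between the sexes, adjusted p 1, whereas knockout males were 2.0-fold lower than knockout females, adjusted p 0.0019 in the authors' deposited table and 0.071 by voom.

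Akr1c6 (NM_030611; chromosome 13, 4433588 to 4456776), a 17β-hydroxysteroid dehydrogenase of mouse liver that reduces androstenedione to testosterone, was the most abundant of the 8. It stood at 326 and 387 FPKM for control males, 245 and 269 in knockout males, 293 and 339.6 in female controls and 293 and 278 in female knockouts, deeper library first. The genotypes were separate in each sex, by only 0.212 FPKM in females, and no comparison passed the test. The authors' deposited table gives a 1.37-fold lower value in knockout males, with a p of 0.030 and an adjusted p of 0.57. Its coding sequence was 92.3% identical to that of Akr1c20, and 3.04% of its 50-base stretches were shared.

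Hsd11b1 (chromosome 1, 195047834 to 195090239), which regenerates corticosterone from its inactive keto form, varied least, with a highest group mean 1.33 times the lowest. Its levels were 153 and 121 FPKM for control males, 172 and 179.8 in knockout males, 143 and 122 in female controls and 157 and 182 in female knockouts, deeper library first. Knockout libraries lay above control libraries in each sex, and the sexes overlapped within each genotype. The authors' ratio of knockout to control was 1.28 in males and 1.16 in females, each with an adjusted p of 1, and the voom log2 changes were 0.40 ± 0.18 and 0.22 ± 0.18 (SE).

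The libraries of the compared groups did not overlap for 7 of the 8 genes in male knockouts (39.7% of 12982 genes), 5 in female knockouts (49.0%), 6 between control sexes (45.3%) and 6 between knockout sexes (37.5%). Separation of 2 libraries from 2 was thus common. It is of FPKM, and normalized ratios can be smaller. Hsd17b2 between control sexes had means of 38.4 and 31.4 FPKM without overlap, but an authors' ratio of 1.10. Whether groups stay apart after normalization was not tested. In order of mean level, knockout males and control females were neighbours with overlapping libraries for Hsd3b2, Cyp17a1 and Srd5a1. For Hsd3b5 they were neighbours without overlap, and Hsd17b2 was lower in knockout males than in every other group.

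**Figure D3:**
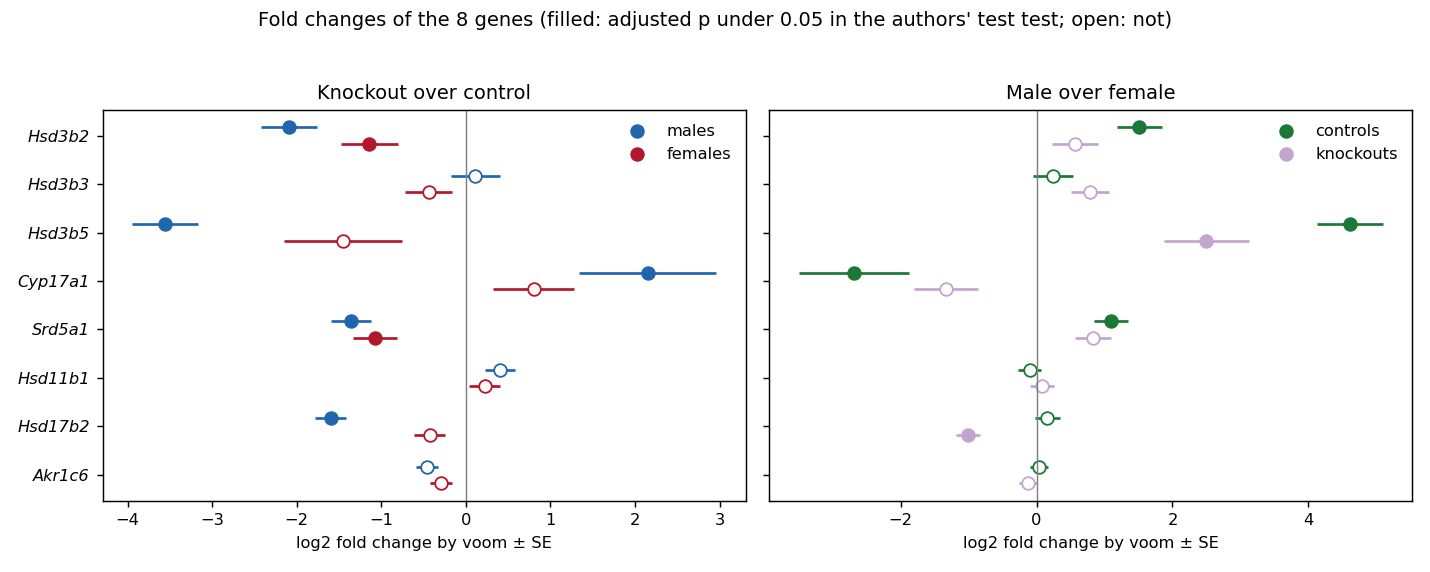
Log2 fold change by limma voom with its standard error (horizontal axes) for each of the 8 genes, knockout over control in males and females (left) and male over female in controls and knockouts (right). Filled points passed an adjusted p of 0.05 in the authors' edgeR test. Hsd3b5 lies at -3.56 in knockout males and at 4.61 for control males over control females.

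A difference between the responses of the sexes was tested as an interaction in limma on log2(FPKM + 1), which understates the change where levels are low. None of the 8 passed at an adjusted p under 0.05, where 2 of 18004 genes were called, or 0.0111%. At an unadjusted p under 0.05 there were 2, Hsd17b2 and Hsd3b5, and voom gave 0 adjusted calls and the same 2 unadjusted. The male change minus the female change of Hsd17b2 was -1.26 ± 0.30 on the log2 scale (SE), p 0.0053 and adjusted p 0.81. That of Hsd3b5 was -2.63 ± 0.68 (SE), p 0.0082 and adjusted p 0.84. For Hsd3b2 it was -1.05 ± 0.54 and for Cyp17a1 1.21 ± 0.89 (SE), both with an adjusted p of 0.84. The calls that Hsd3b5, Hsd17b2 and Cyp17a1 received in males and not in females are therefore not shown to differ between the sexes.

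Around the 8 genes, 56 further genes of 7 pathway lists were found in the table. Of these, 4 were called in knockout males, 7.14% beside 2.18% of all genes, and 1 in knockout females, 1.79% beside 1.55%. Between control sexes 3 were called, 5.36% beside 1.47% of all genes, and between knockout sexes 5, 8.93% beside 1.01%. Voom called none of those it tested. The 3 other reductases of the 5α and 5β positions, the 17 other 17β-, 3α- and 20α-hydroxysteroid dehydrogenases and the 2 partners of Hsd11b1, Hsd11b2 and H6pd, had 0 calls in all 4 comparisons in the authors' edgeR test and by voom. At an unadjusted p under 0.05 the authors' test had 0, 1 and 0 of them in knockout males and 0, 1 and 1 in knockout females, in that order. In lists this small, having no adjusted call is near the shares of all genes. Of the 4 other genes of the 3β-hydroxysteroid dehydrogenase list, Hsd3b1 alone was called, in both sex comparisons (beside 1.47% and 1.01% of all genes). In the list of steroid synthesis from cholesterol, 1 of 10 was called in knockout females and between the control sexes: Cyp21a1, the 21-hydroxylase, was 4.14-fold higher in knockout females, adjusted p 0.0013, and 8.26-fold higher in control males than females, adjusted p 1.3e-04. The voom log2 difference between control sexes, 3.14, was 1.34 without the deeper control male and 3.74 without the deeper control female library. Its reads were few, 132 and 6 in control males, 46 and 78 in knockout males, 15 and 3 in female controls and 34 and 50 in female knockouts, and mouse carries a closely similar pseudogene.

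Among 9 receptors and plasma carriers of steroids, 2 were called in knockout males, where 2.18% of all genes were called, and 0 in the other comparisons by the authors' edgeR test, with 2, 2 and 0 at an unadjusted p under 0.05 in knockout females, between controls and between knockouts. Serpina6, the corticosteroid-binding globulin, was 2.81-fold higher, adjusted p 0.0035, and its voom log2 change of 1.60 was 2.19 once the deeper control male library was left out and 0.96 once the shallower was. The list's median log2 ratio was -0.08, beside 0.02 for all genes. Among 11 genes known to respond to glucocorticoids, 2, the metallothionein genes Mt1 and Mt2, were called in knockout males, beside 2.18% of all genes, 3.97-fold higher with an adjusted p of 0.039 and 5.17-fold higher with 0.016, and the list's median was 0.17. The control male libraries lay far apart, at 97.5 and 15.2 FPKM for Mt1 and 60.9 and 6.97 for Mt2, deeper library first. Without the deeper control male library the voom log2 change of Mt1 went from 2.18 to 3.99 and that of Mt2 from 2.46 to 4.74, and without the shallower to 1.14 and 1.46. Leaving out libraries for genes of these lists was chosen after seeing the data. Knockout females had 0 calls in that list by edgeR and by voom, 2 and 0 at an unadjusted p under 0.05, with a median of 0.33, beside 0.00 for all genes. Males were lower than females for Dusp1, a phosphatase, among controls (3.17-fold, adjusted p 2.0e-08) and among knockouts (3.23-fold, adjusted p 2.1e-04). The voom log2 difference of Dusp1 among knockouts, -1.55, was -2.23 without the deeper and -0.88 without the shallower knockout female library. Among knockouts 4 of 11 were called, all lower in males, beside 1.01% of all genes: Dusp1, the receptor co-chaperone Fkbp5 (2.76-fold, adjusted p 1.5e-04), the kinase Sgk1 (1.63-fold, 0.042) and the gluconeogenic enzyme Pck1 (1.69-fold, 0.044). Among controls 1 of 11 was called, beside 1.47%, with male levels 2.73-fold lower for Fkbp5 (adjusted p 0.073), 1.41-fold for Sgk1 (0.79) and 1.45-fold for Pck1 (0.55), none of which passed. The list's median was -0.66 among knockouts, beside 0.00 for all genes, and -0.60 among controls, beside -0.02. All these folds and adjusted p-values, other than the voom values, are from the authors' deposited table.

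**Figure D4:**
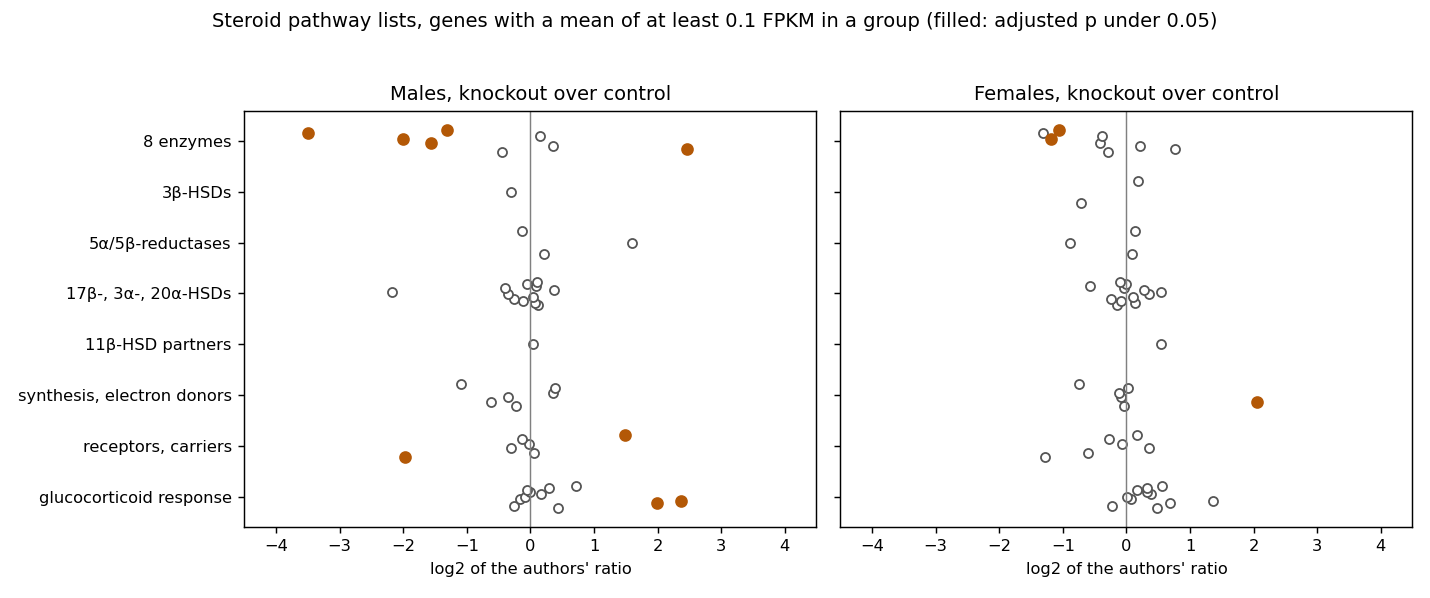
Log2 of the authors' ratio of knockout to control (horizontal axes) for the 8 enzymes and the genes of 7 pathway lists, in males (left) and females (right), HSD standing for hydroxysteroid dehydrogenase. Each point is 1 gene with a mean of at least 0.1 FPKM in a group, genes at 0 in both groups are left out, and filled points have an adjusted p under 0.05. The 8 enzymes hold 5 filled points in males and 2 in females, and all 7 lists together hold 4 and 1.

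Cell type markers were also summed in the other groups. Of hepatocyte markers, 9 of 10 were found, and they summed to 18615 to 21429.6 FPKM in control females and 16693 to 19910.4 in knockout females. Serpina1a alone of them was called, 1.88-fold lower in knockout males (adjusted p 0.014). Of Kupffer cell markers, 7 of 8 were found, summing to 37.4 to 40.0 FPKM in control females and 40.8 to 51.4 in knockout females, and C1qa was 1.79-fold higher in knockout males (adjusted p 0.029). Pancreas acinar markers summed to 0.737 to 2.08 FPKM in knockout males and at most 0.256 elsewhere (Ctrb1 was 92.1-fold higher in knockout males than knockout females, adjusted p 0.0028), kidney tubule markers were at 0 in every library, and bile duct markers summed to 0.533 to 0.905. Lymphocyte markers summed to 1.11 to 1.66 FPKM for control males, 2.20 to 2.33 in knockout males, 2.30 to 3.04 in female controls and 2.36 to 2.79 in female knockouts. Stellate markers summed to 25.7 to 34.6 and 21.8 to 28.2 FPKM in control and knockout males against 39.0 to 40.1 and 36.1 to 37.6 in females of those genotypes. Endothelial markers summed to 14.6 to 15.6 and 14.8 to 16.7 FPKM in males against 18.5 to 19.4 and 18.1 to 18.7 in females, and neutrophil markers to 0.327 to 2.50 over all libraries. The part of these markers in the results was not tested. In these lists Lrat was lower in males than females among controls and knockouts, and Cd3e among controls, in the authors' edgeR test.

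The genes with the most similar profiles were found by the distance between centred log2(FPKM + 0.1) values over the 4 group means, among 9566 genes. Keg1, at a distance of 0.22, was nearest to Hsd3b2, with 68.9, 18.8, 23.4 and 9.79 FPKM for control males, knockout males, control females and knockout females, followed by Lrrc16a and Nudt7. Nudt7, Lrrc16a and C8b were nearest to Srd5a1, at 0.16, 0.29 and 0.29, and these 3 were named again with a pseudocount of 1. Hsd3b5 had more distant neighbours, Adh6-ps1 at 0.81, Obp2a at 0.83 and the major urinary protein gene Mup7 at 1.0. Igfals, the gene of a serum carrier of insulin-like growth factors, was nearest to Hsd17b2 at 0.19, before Nr1d1 and Mir1966. Nearest to Cyp17a1 were the microRNA genes Mir1942, Mir5136 and Mir802, at 0.39, 0.42 and 0.44, of which none reached more than 3.0 FPKM, and none was named again with a pseudocount of 1. The flat profiles of Hsd3b3 (Fads6, Spc24, 1700001C19Rik), Hsd11b1 (Smyd5, Immp2l, Sec14l1) and Akr1c6 (Polr1c, Smim13, Lcorl) had neighbours within 0.15, 0.030 and 0.038. With a pseudocount of 1, the number of the 3 neighbours named again was 2 for Hsd3b2 and Hsd17b2, 1 for Hsd3b3 and Hsd3b5, and 0 for Hsd11b1 and Akr1c6. These are descriptions over 4 means.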

How the data were processed

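Total RNA from frozen liver was depleted of ribosomal RNA and made into stranded libraries, per the labels' protocols. The submitters' processing notes credit the authors with TopHat2, featureCounts, edgeR and the mm9 build; for versions, annotation or filters the sources used here give nothing. Per the file headers, the authors deposited the mean FPKM of each group, the normalized ratio between groups, and edgeR p-values with adjusted p-values. Recomputing the Benjamini-Hochberg adjustment over all 24197 genes gave the adjusted p of the table, with a largest difference of 2.5e-08. A gene was called at an adjusted p under 0.05, and all fold changes credited to the authors are theirs.

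The table holds no counts and no single libraries. Each mean FPKM is the average of 2 whole read numbers divided by library totals and gene length, and it was solved for both numbers within 1e-08 reads. Of the genes, 6193 had no value above 0. A solution was found for each of the remaining 18004, with a largest FPKM difference of 2.2e-11. For 14741 of them no annotated length fitted, and the first length that gave whole reads was used. On simulated data 250 of 250 genes came out right. These were drawn from solved genes of middling read numbers, so genes with few reads and genes as abundant as Akr1c6 and Hsd11b1 were not covered. Recovered libraries were not tied to pool numbers. Depth is given by the library totals, and the shallowest library sets the precision of low genes. Limma 3.58.1 (R 4.3.3) was fitted to log2(FPKM + 1) with trend moderation, and voom to reads of 12982 genes with at least 10 reads in at least 2 libraries, scaled by the median of ratios, all 4 groups in 1 fit with 4 residual degrees of freedom. Alternatives were a stricter threshold, a 2-fold minimum, a filter at 1 FPKM, pseudocounts of 0.1 and 1, voom without a filter and voom without each library. The numbers called with the filter at 1 FPKM are not given here.

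The 8 genes, the pathway and marker lists and the rules were chosen with earlier results of these data known. Named genes were the 8, called members of the pathway lists, and the 3 genes nearest to each of the 8 in profile; called genes of the marker lists are named too. The values of 1 called gene of the pathway lists are not reported here. Coding sequences came from GENCODE M21 and promoter windows from RefSeq on GRCm38.p6, read with Biopython 1.88.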

Additional observations from a re-analysis of the deposited data

How the results depend on the processing

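An adjusted p under 0.01 and a minimum of 2-fold gave the same numbers of called genes among the 8 in all 4 comparisons. In knockout males, 5 calls became 0 with limma on log2(FPKM + 1), 1 with log2(FPKM + 0.1), and 2 to 4 by voom without each library in turn; 2 were left without the deeper control male, shallower control male or deeper knockout male library, and Hsd3b5 and Hsd17b2 were called each time. In knockout females, 2 calls became 0 by voom, by voom with no filter, with both limma fits and by voom with each library left out (0 to 0). Between control sexes, 4 calls became 1 by voom, by voom with no filter and with both limma fits, and 0 to 3 without each library, with 0 without the deeper control female library and 3 without either knockout male library. Between knockout sexes, 2 calls became 0 by voom and both limma fits, 1 by voom with no filter, and 0 to 0 without each library. The interaction had 0 calls under all settings. The causes were not tested. Of the 32 log2 ratios, none that was called reversed under any setting; voom kept 24 on the same side of the threshold and lost 8. Depth was lowest in the shallower control male library, which held 6 reads of Cyp17a1. No paired analysis was possible because the recovered libraries carry no pool number.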
